A study of Mus musculus with 9 samples.

Results

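The genes described here encode the proteins of the mitochondrial ribosome, taken as every gene symbol that starts with Mrpl or Mrps and goes on with a number. The symbols named for the large subunit (Mrpl) numbered 47 and those named for the small subunit (Mrps) 29, which gave 76 genes of the 18061 in the table. All 76 passed the filter on low values. The rule uses the symbols alone and no measured change.

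RNA sequencing was done on the white part of the gastrocnemius, a fast-twitch calf muscle, of Gaa knock-out and wild-type mice. Gaa encodes acid alpha-glucosidase, the lysosomal enzyme that degrades glycogen. Pompe disease is the disorder in which muscle without this enzyme stores glycogen, for which these knock-out mice serve as a model. The knock-out group was 5 libraries from mice aged 5 months with a disrupted exon 6 of Gaa and LoxP sites in introns 5 and 6. The wild-type group was 4 libraries, 2 from mice aged 6 months and 2 from mice aged 5 months. The labels give a mixed BL6/129j background for all 9 libraries and a colony kept by brother-sister mating, and they name no treatment and no littermates. No age is attached to the wild-type columns (wt1, wt2, wt3 and wt4), so both ages form 1 group and age cannot be told apart from the other differences among those libraries. Whether each library is a separate mouse is not in the labels. The p-values set the difference between the groups against the variation between libraries, which may not be variation between mice.

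Mitochondrial ribosomes translate the few messenger RNAs that mitochondrial DNA encodes, all of them for subunits of the respiratory chain and the ATP synthase. Their ribosomal RNAs come from mitochondrial DNA, while every protein is encoded in the nucleus, made in the cytosol and imported. The small subunit holds the messenger RNA and the decoding centre, and the large subunit forms the peptide bond and releases the chain at the inner membrane. The roles given below are those known from the human and porcine ribosomes.

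Levels are RPKM, in which reads are set against the length of the transcript and the depth of the library, and all fold changes are knock-out over wild type on the scale log2(RPKM + 0.1). Tests are limma's, with Benjamini-Hochberg adjustment over the 11032 genes tested and a threshold of 0.05. The targeted gene Gaa ranged from 3.11 to 3.64 RPKM across the knock-out and from 46.0 to 56.0 RPKM across the wild type. Its change of -3.80 on the log2 scale (SE 0.07) had a limma adjusted p of 1.8e-11 and, in a two-sided exact permutation test over 126 splits, the smallest p they allow, 0.0079. Summed over all transcripts, knock-out libraries held 349239 to 374056 RPKM and wild-type libraries 315337 to 327517 RPKM, and the median log2 fold change over all genes tested was 0.12. Changes are therefore given on the deposited scale and again after each library was centred on its median log ratio. From the steps that whole reads leave in low values, 1 RPKM of a 1-kilobase transcript was estimated at 17.5 to 37.5 reads per knock-out library and 37.1 to 64.5 reads per wild-type library. The median member then rested on an estimated 448 to 982 reads per knock-out library and 845 to 1561 per wild-type library.

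The mitochondrial ribosomal protein genes as a group differed between the genotypes by about as much as the median gene did. On the deposited scale 35 of the 76 were higher in the knock-out (46.1%), where 37.0% of all genes tested were, and 6 were lower (7.89%), where 14.8% of all genes were. The other 35 did not pass the test. The median log2 fold change was 0.13 over the members, against 0.12 over all genes tested. After centring, 16 were higher and 15 lower, against 25.1% and 24.9% of all genes, and the median was 0.01. No member reached a 2-fold difference in either direction. Fold changes were above 0 for 58 members and below 0 for 18, and they were spread less than those of other genes. Their SD was 0.22 on the log2 scale, against 0.56 over all genes tested, and their interquartile range was 0.26, against 0.47. The genes were not matched for level. The lowest member averaged 2.76 RPKM over all libraries, while genes were tested from a mean of 0.5 RPKM.

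**Figure D1:**
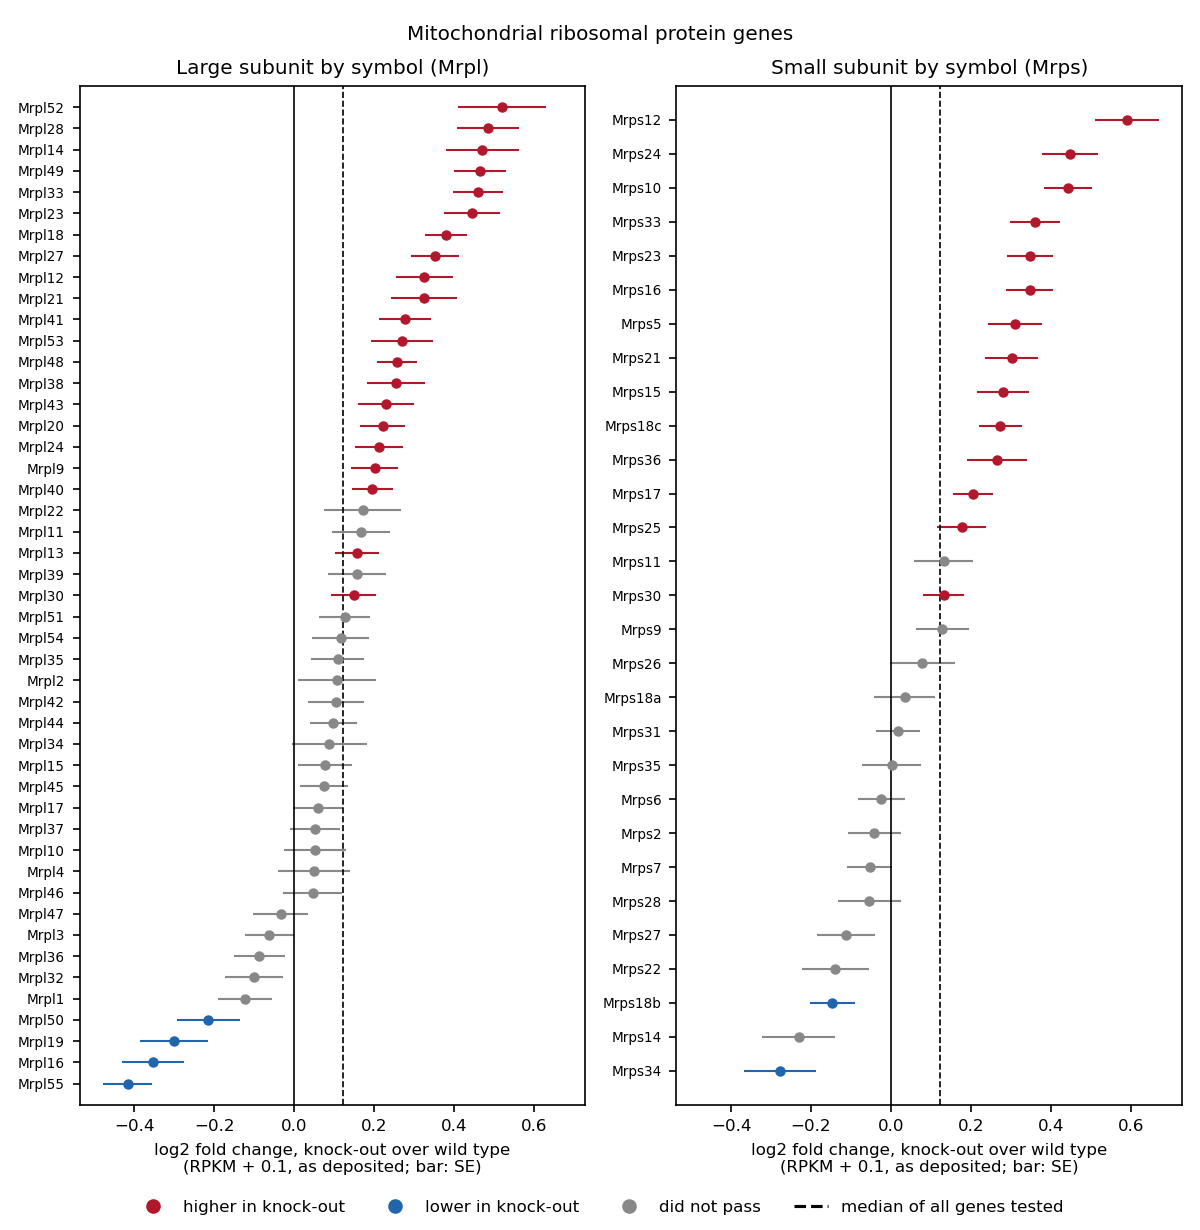
Log2 fold change (knock-out over wild type, RPKM + 0.1, as deposited) of the 47 Mrpl genes on the left and the 29 Mrps genes on the right, ordered by size. Points are limma estimates and bars are 1 SE; red marks genes that were higher, blue genes that were lower and grey genes that did not pass, and the dashed line is the median of all genes tested, 0.12. The points run from -0.42 for Mrpl55 to 0.59 for Mrps12.

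In 30 members every knock-out library lay above every wild-type library, and in 4 members (Mrpl16, Mrpl55, Mrps18b and Mrps34) every knock-out library lay below. Among all genes tested the shares were 30.9% and 11.4%. Fewer members were higher when the scale was changed, and 8 were higher on the deposited scale, after centring and after the trend with transcript length was removed as well. These were Mrpl18, Mrpl28, Mrpl49, Mrps5, Mrps10, Mrps12, Mrps16 and Mrps24, 3 by name of the large subunit and 5 of the small. The 6 members that were lower on the deposited scale (Mrpl16, Mrpl19, Mrpl50, Mrpl55, Mrps18b and Mrps34) were lower on all 3 scales. The share of all genes tested that passed on all 3 scales is not given here, so these counts cannot be set against it. On single scales 25.1% of all genes were higher and 24.9% lower after centring, and 24.9% and 24.1% with the length trend removed.

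By mean log2 level, the contrast of large and small subunit genes changed between the genotypes by less than the libraries varied. On the deposited scale 21 Mrpl genes were higher (44.7%) and 4 lower (8.51%), and 14 Mrps genes were higher (48.3%) and 2 lower (6.90%). Among all genes tested 37.0% were higher and 14.8% lower. The median log2 fold changes were 0.15 for Mrpl and 0.13 for Mrps. After centring, 9 Mrpl genes were higher (19.1%) and 8 lower (17.0%), and 7 Mrps genes were higher (24.1%) and 7 lower (24.1%). Of all genes 25.1% were then higher and 24.9% lower. The summed Mrpl level was 1266, 1213, 1149, 1199 and 1141 RPKM in the knock-out libraries, against 1023, 997, 1086 and 1045 RPKM in the wild-type libraries. The summed Mrps level was 663, 654, 601, 613 and 597 RPKM in the knock-out, against 538, 531, 583 and 558 RPKM in the wild type. Both sums were higher in every knock-out library than in any wild-type library. Divided by each other they gave 1.91 ± 0.0356 in the knock-out (SD, n = 5) and 1.88 ± 0.0168 in the wild type (SD, n = 4). These ratios overlapped through ko2 alone (1.85), since the other knock-out libraries (1.91 to 1.95) lay above the wild-type range of 1.86 to 1.90. The mean log2 level of the Mrpl genes less that of the Mrps genes was 0.11 ± 0.02 in knock-out libraries and 0.10 ± 0.01 in wild-type libraries, a difference of 0.01 that is smaller than either SD. By structure Mrps18a and Mrps30 belong to the large subunit. With both counted there and Mrps36 left out, 22 of 49 large subunit genes were higher as deposited (44.9%). Of the 26 small subunit genes 12 were higher (46.2%).

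The higher sums went with the higher RPKM totals. All members together summed to 1819 ± 80.2 RPKM in the knock-out and 1590 ± 60.7 RPKM in the wild type (SD), 1.14 times as much, while the RPKM total was 1.12 times as much. As a share of its total, each library gave 0.516%, 0.501%, 0.496%, 0.503% and 0.498% of its RPKM to these genes in the knock-out, against 0.477%, 0.466%, 0.511% and 0.508% in the wild type. The groups overlapped, since wt3 and wt4 lay above 4 of the 5 knock-out libraries. After centring, the median log2 ratio of the members to the wild-type mean was 0.14 in ko1 and lay between -0.07 and 0.02 in the other knock-out libraries, with -0.01 to 0.02 in the wild-type libraries. The library ko1 thus stood above the rest for this group of genes; without it 15 members were higher and 15 lower after centring.

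**Figure D2:**
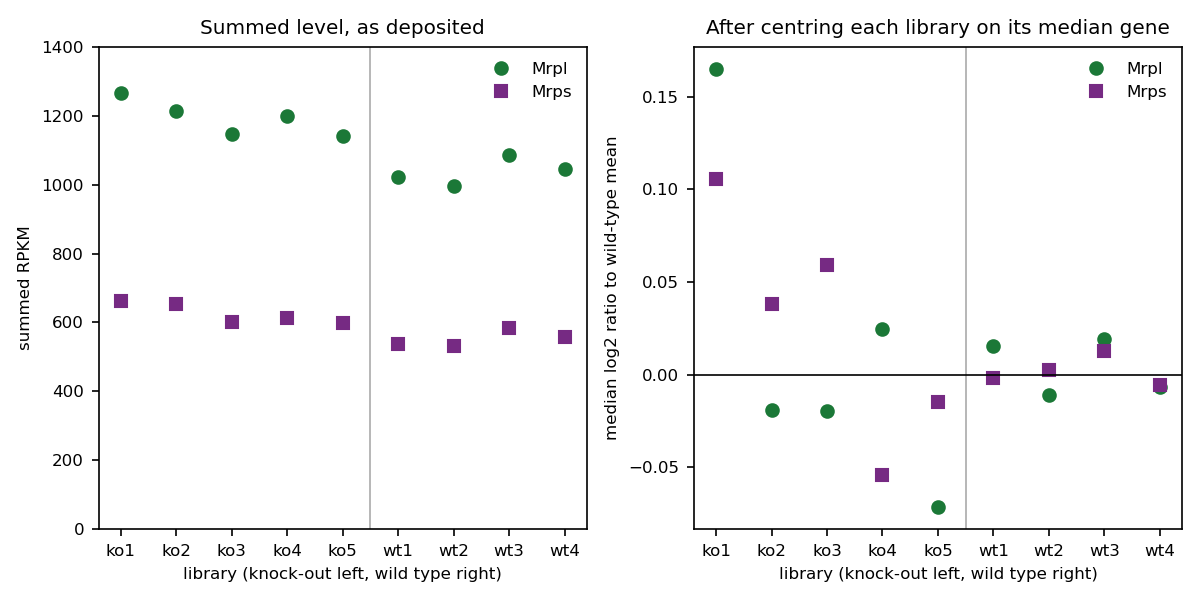
Left, the summed RPKM of the Mrpl and the Mrps genes in each library as deposited, with the 5 knock-out libraries left of the 4 wild-type libraries. Right, the median log2 ratio of each subunit's genes to the wild-type mean after each library was centred on its median gene. The sums are higher in every knock-out library, and after centring only ko1 lies above 0.10 for both subunits.

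Transcript length moved with the fold changes. Most members have short transcripts, with a median of 1224.5 bases against 2866 bases over all genes tested, and 56 of the 76 fell in the shortest length class, the lowest tertile of transcripts (up to 2136 bases). In that class 49.6% of all genes tested were higher in the knock-out and 9.48% lower on the deposited scale. Of the 56 members in it 30 were higher (53.6%) and 5 lower (8.93%), which is near those shares. Of the 20 longer members 5 were higher (25.0%) and 1 lower (5.00%), against 30.6% and 17.4% of all longer genes tested. With the trend removed in each library, 10 members were higher and 25 lower, where 24.9% of all genes were higher and 24.1% lower, and the members' median was -0.04. Whether length accounts for the higher calls was not tested.

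**Figure D3:**
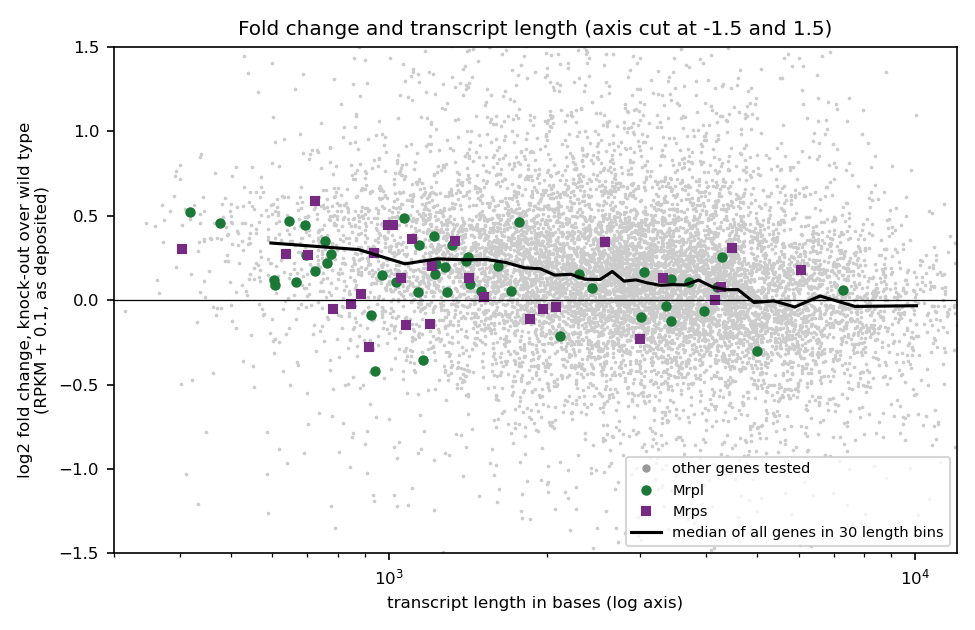
Log2 fold change (knock-out over wild type, RPKM + 0.1, as deposited) against transcript length in bases on a log axis, with Mrpl genes as green circles, Mrps genes as purple squares and other genes in grey. The black line is the median of all genes in 30 length bins, and 277 genes lie beyond the plotted range of -1.5 to 1.5. The line is highest for the shortest transcripts, where most members lie, and falls to about 0 for the longest.

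The decoding centre and the channel of the messenger RNA held the member with the largest rise. Mrps12, which lies at the decoding centre, had 29.0, 29.4, 23.8, 24.3 and 23.3 RPKM in the knock-out libraries, against 18.3, 16.2, 17.2 and 16.9 RPKM in the wild-type libraries. The groups did not overlap, and ko1 and ko2 were the highest. As deposited its log2 fold change came to 0.59 (SE 0.08, limma adjusted p = 9.2e-05) and after centring to 0.46 (limma adjusted p = 0.00078), a rise of 50.6% or 37.9%. Mrps24, the counterpart of a bacterial protein at the entry of the messenger RNA, had 28.9, 27.9, 24.1, 24.7 and 24.8 RPKM in the knock-out, against 17.7, 18.6, 20.6 and 19.3 RPKM in the wild type. Every knock-out library again lay above every wild-type library, with a log2 fold change of 0.45 (SE 0.07, limma adjusted p = 0.00023). Mrps5, its neighbour at that entry, had 12.7 to 15.6 RPKM in the knock-out and 10.5 to 11.6 RPKM in the wild type (log2 fold change 0.31, limma adjusted p = 0.0025). Mrps2, the fourth gene listed for this site, did not pass as deposited (log2 fold change -0.04, limma adjusted p = 0.62) and was lower after centring (-0.17, limma adjusted p = 0.036). Of the 4 listed 3 were thus higher as deposited (75.0%), against 37.0% of all genes tested. The list was chosen with earlier results known and may not hold every protein of the site, so its share cannot be read as that of the site.

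Other rises were in both subunits. Mrpl52, a large subunit protein that bacteria lack, had 44.6, 46.9, 31.9, 36.9 and 33.7 RPKM in the knock-out libraries, against 28.2, 26.1, 28.3 and 24.5 RPKM in the wild-type libraries. The groups did not overlap, but ko1 and ko2 stood well above the other knock-out libraries. The log2 fold change came to 0.52 (SE 0.11, limma adjusted p = 0.0021). Mrpl28, which has a bacterial counterpart, had 29.6, 34.2, 27.3, 26.2 and 27.0 RPKM in the knock-out, against 20.3, 19.3, 21.2 and 21.3 RPKM in the wild type. All its knock-out values lay above the wild-type range, with a log2 fold change of 0.49 (SE 0.08, limma adjusted p = 0.00028). Mrpl49, another protein without a bacterial counterpart, had 12.0, 12.3, 12.9, 11.6 and 11.2 RPKM in the knock-out, against 8.34, 8.90, 9.45 and 8.04 RPKM in the wild type. Its libraries were tightly grouped in both genotypes (log2 fold change 0.46, SE 0.06, limma adjusted p = 0.00010). Mrpl14, at the interface of the subunits, averaged 47.3 ± 4.50 RPKM in the knock-out and 34.2 ± 4.24 RPKM in the wild type (log2 fold change 0.47, limma adjusted p = 0.0012).

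Among the most abundant members, Mrpl33 was higher and Mrpl42 did not pass. Mrpl33, a small protein of the large subunit, had 99.1, 92.0, 101, 98.9 and 98.1 RPKM in the knock-out libraries, against 66.0, 67.7, 70.5 and 81.0 RPKM in the wild-type libraries. The groups did not overlap (log2 fold change 0.46, SE 0.06, limma adjusted p = 9.3e-05). Mrpl42, which bacteria lack, had the highest level per length of all members, 107 ± 10.1 RPKM in the knock-out and 99.1 ± 4.82 RPKM in the wild type. These ranges overlapped (log2 fold change 0.11, limma adjusted p = 0.23). With the length trend removed Mrpl33 no longer passed (0.12, limma adjusted p = 0.22). Nor did Mrpl12 (0.09, limma adjusted p = 0.22), Mrpl14 (0.16, limma adjusted p = 0.097), Mrpl23 (0.14, limma adjusted p = 0.086) or Mrpl52 (0.17, limma adjusted p = 0.12).

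The stalk that recruits the translation factors gave 2 higher genes of 5 as deposited (40.0%, against 37.0% of all genes tested) and 1 after centring. With the length trend removed 0 were higher and 1 was lower. Mrpl12, the stalk protein that contacts the factors and that is also known to bind the mitochondrial RNA polymerase, had 78.4, 77.3, 65.3, 71.7 and 65.1 RPKM in the knock-out libraries, against 60.3, 54.9, 59.7 and 53.0 RPKM in the wild-type libraries. As deposited its log2 fold change came to 0.33 (SE 0.07, limma adjusted p = 0.0025) and after centring to 0.20 (limma adjusted p = 0.044). Mrpl10 and Mrpl11, which form the base of the stalk, did not pass. Mrpl10 averaged 12.4 ± 0.305 RPKM in the knock-out and 12.0 ± 1.54 RPKM in the wild type, and Mrpl11 averaged 8.47 ± 0.843 RPKM in the knock-out and 7.50 ± 0.175 RPKM in the wild type. In the central protuberance, the crown of the large subunit, 5 of 6 genes were higher as deposited (83.3%) and 2 after centring (33.3%). Of these 6 genes 5 were in the shortest length class, where 49.6% of all genes tested were higher as deposited. With the length trend removed 2 of the 6 were higher and 1 lower. Mrpl18 led the 6 with 44.2 to 51.1 RPKM in the knock-out and 36.6 to 38.1 RPKM in the wild type (log2 fold change 0.38, limma adjusted p = 0.00010). Mrpl48 counts as higher both as deposited and with the length trend removed, although the values of its coding transcript overlapped between the genotypes.

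Around the exit of the peptide tunnel 2 of 7 genes were higher (28.6%), 1 after centring and 0 with the length trend removed. Mrpl23, at the rim of the exit, had 45.1, 38.8, 36.9, 34.5 and 36.3 RPKM in the knock-out libraries, against 28.0, 28.2, 27.8 and 28.0 RPKM in the wild-type libraries, whose SD was 0.127. The groups did not overlap (log2 fold change 0.44, SE 0.07, limma adjusted p = 0.00029). Mrpl45, which ties the ribosome to the inner membrane, averaged 11.2 ± 0.174 RPKM in the knock-out and 10.6 ± 0.869 RPKM in the wild type, and did not pass (log2 fold change 0.07, limma adjusted p = 0.32). Proteins with a bacterial counterpart gave 22 higher (47.8%) and 3 lower (6.52%) genes of 46 as deposited, with a median log2 fold change of 0.15. After centring 12 were higher and 10 lower (median 0.03), and with the length trend removed 7 were higher and 14 lower (median -0.06). Proteins specific to mitochondrial ribosomes, with Mrps18a and Mrps18b counted among them, gave 12 higher (41.4%) and 3 lower (10.3%) of 29 as deposited, with a median of 0.12. After centring 4 were higher and 5 lower (median -0.01), and with the length trend removed 3 were higher and 11 lower (median -0.04). Among all genes tested 37.0% were higher and 14.8% lower as deposited. The difference between these groups was not tested.

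The falls were led by Mrpl55, a large subunit protein. It had 14.2, 15.4, 13.1, 14.6 and 13.6 RPKM in the knock-out libraries, against 19.1, 18.2, 20.4 and 18.0 RPKM in the wild-type libraries. The groups were separate, with a log2 fold change of -0.42 (SE 0.06, limma adjusted p = 0.00018) as deposited and -0.54 after centring (limma adjusted p = 1.7e-05). Mrpl16, which lies near the peptidyl transferase centre, had 14.9, 14.6, 14.3, 16.2 and 16.2 RPKM in the knock-out, against 16.4, 20.1, 20.6 and 21.0 RPKM in the wild type. The library wt1 nearly touched the knock-out range, and the other wild-type libraries lay well above it (log2 fold change -0.35, SE 0.08, limma adjusted p = 0.0025). Mrpl19, the member with the lowest level per length, had 2.52, 2.37, 2.40, 2.81 and 2.36 RPKM in the knock-out, against 2.95, 2.74, 3.35 and 3.33 RPKM in the wild type. The groups overlapped by ko4 and wt2 (log2 fold change -0.30, SE 0.08, limma adjusted p = 0.012), and without wt3 and wt4 Mrpl19 no longer passed (-0.19, limma adjusted p = 0.15).

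Of the small subunit, Mrps34, which bacteria lack, and Mrps18b, one of the proteins related to a single bacterial small subunit protein, were lower. Mrps34 had 19.9, 19.9, 14.7, 19.1 and 17.6 RPKM in the knock-out libraries, against 21.8, 21.6, 24.3 and 20.4 RPKM in the wild-type libraries. The groups did not overlap, and ko3 was the lowest (log2 fold change -0.28, SE 0.09, limma adjusted p = 0.023). Mrps18b had 18.3, 18.4, 17.1, 16.5 and 17.2 RPKM in the knock-out, against 18.8, 18.8, 21.1 and 18.9 RPKM in the wild type. The distance between the groups was small and wt3 stood apart (log2 fold change -0.15, SE 0.06, limma adjusted p = 0.047). Mrpl50, of the large subunit, had 13.5 to 17.3 RPKM in the knock-out and 16.7 to 18.7 RPKM in the wild type, which overlap (log2 fold change -0.21, limma adjusted p = 0.039). As deposited these 3 calls did not hold without wt3, where the limma adjusted p was 0.068 for Mrps34, 0.15 for Mrps18b and 0.099 for Mrpl50. After centring, their limma adjusted p was 0.0029 for Mrps34, 0.0016 for Mrps18b and 0.0041 for Mrpl50. Mrps14, a protein of the head of the small subunit, had 9.18 to 10.4 RPKM in the knock-out and 9.31 to 13.0 RPKM in the wild type. It missed the threshold as deposited (log2 fold change -0.23, limma adjusted p = 0.053) and was lower after centring (-0.36, limma adjusted p = 0.0043).

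**Figure D4:**
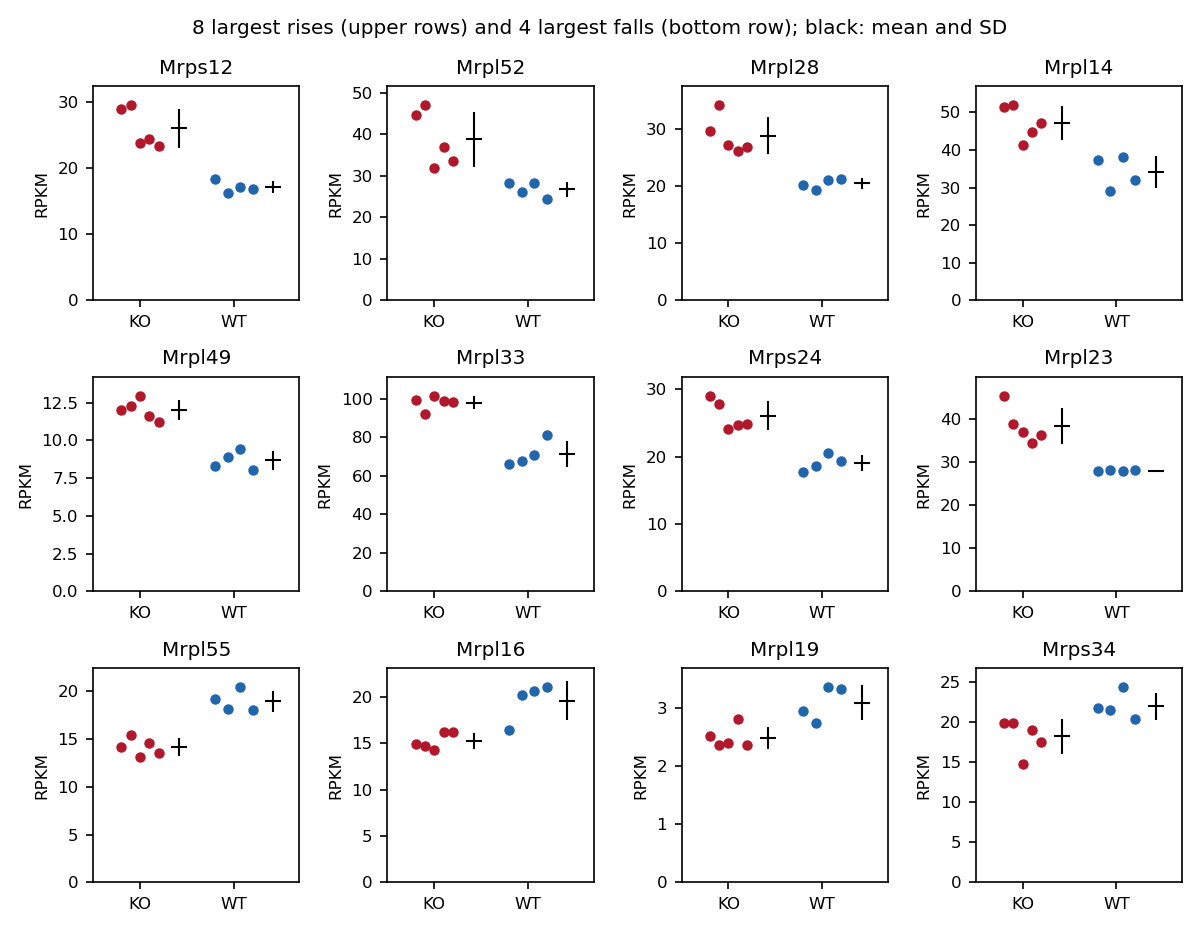
RPKM of the 8 members with the largest rises (upper rows) and the 4 with the largest falls (bottom row), with 1 point per library, knock-out left of wild type; the crosses show the mean and SD, and every axis starts at 0. The groups overlap only for Mrpl19, and the Mrpl23 values of the wild type lie within 27.8 to 28.2.

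A few symbols do not say where the protein sits. Mrps18a and Mrps30 are large subunit proteins by structure. Mrps18a averaged 29.2 ± 3.02 RPKM in the knock-out and 28.4 ± 1.77 RPKM in the wild type and did not pass, while Mrps30 averaged 13.8 ± 0.614 RPKM in the knock-out and 12.6 ± 0.307 RPKM in the wild type (log2 fold change 0.13, limma adjusted p = 0.048). Mrps30 no longer passed after centring (0.00, limma adjusted p = 0.95). The protein of Mrps36 has since been placed in the oxoglutarate dehydrogenase complex of the citric acid cycle. Mrps36 averaged 34.7 ± 0.551 RPKM in knock-out libraries and 29.0 ± 3.73 RPKM in wild-type libraries (log2 fold change 0.27, limma adjusted p = 0.012), and with its most abundant transcript alone the log2 fold change was 0.09 (limma adjusted p = 0.55). Mrps25, another small subunit protein and one of the lowest in level per length, averaged 4.62 ± 0.163 RPKM in the knock-out and 4.08 ± 0.228 RPKM in the wild type (log2 fold change 0.18, limma adjusted p = 0.031), and did not pass after centring (0.05, limma adjusted p = 0.48). In 7 members the level is a sum over several transcripts. For Mrpl48, chosen after its values were seen, the coding transcript had 13.5 to 18.0 RPKM in the knock-out and 13.8 to 17.1 RPKM in the wild type, which overlap. Its non-coding transcript had 8.27, 6.01, 5.18, 5.26 and 5.20 RPKM in the knock-out, against 3.58, 3.60, 2.72 and 1.96 RPKM in the wild type, which do not.

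Promoters were searched for the letters of factors known to act on genes of mitochondrial proteins, as 250 bases before to 50 after the start from RefSeq (GRCm38.p6). A promoter was found for 67 members, 73 promoters in all. The ETS letters CCGGAAG, which the factor GABPA binds, were in 32.9% of them on either strand, against 17.3% of the promoters of tested genes and 8.86% of all promoters. The NRF-1 letters GCGCATGCG were in 9.59%, against 3.79% and 1.75%, and the YY1 letters AAGATGGCG in 11.0%, against 3.13% and 1.40%. The extended half-site of the ERR receptors, TCAAGGTCA, was in 0 of the 73 promoters, against 0.277% and 0.423%. Matches of different motifs overlapped in 0 of the 73 promoters. The median GC content was 58.3% in the members' promoters and 61.0% in those of tested genes. Of the 24 members with ETS letters 14 were higher and 1 was lower as deposited. Their median log2 fold change was 0.26, and that of the members without them was 0.13. Of the 7 with NRF-1 letters 1 was higher and 1 lower (median 0.06, against 0.17 without). Of the 8 with YY1 letters 1 was higher and 0 lower (median 0.08, against 0.18 without). Among all genes tested 37.0% were higher, and in the shortest length class 49.6% were. These counts, medians and shares are as deposited and are given as a description with no test. Of the members with ETS letters, Mrpl18, Mrpl27, Mrpl33, Mrpl52, Mrps12, Mrps16, Mrps23 and Mrps33 were higher after centring. On that scale Mrpl3, Mrps18b, Mrps22 and Mrps27 were lower. With the length trend removed, only Mrpl18, Mrpl48, Mrps12 and Mrps16 of them were higher. Mrpl3, Mrpl34, Mrps18a, Mrps18b, Mrps22 and Mrps27 were then lower. The promoters of the largest rise, the largest fall and a fall that holds both the ETS and the NRF-1 letters are printed 5′ to 3′ on the strand of the gene, with the matches in capitals. Mrps12 lies at chr7:28741772-28742071 on the minus strand, Mrpl55 at chr11:59202236-59202535 on the plus strand and Mrps18b at chr17:35916391-35916690 on the minus strand.
Mrps12: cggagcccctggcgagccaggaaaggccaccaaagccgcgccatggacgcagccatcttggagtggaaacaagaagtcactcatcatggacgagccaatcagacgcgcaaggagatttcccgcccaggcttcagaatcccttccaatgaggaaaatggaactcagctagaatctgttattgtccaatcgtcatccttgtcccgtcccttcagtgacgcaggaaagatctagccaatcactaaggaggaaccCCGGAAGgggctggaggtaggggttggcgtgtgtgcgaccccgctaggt
Mrpl55: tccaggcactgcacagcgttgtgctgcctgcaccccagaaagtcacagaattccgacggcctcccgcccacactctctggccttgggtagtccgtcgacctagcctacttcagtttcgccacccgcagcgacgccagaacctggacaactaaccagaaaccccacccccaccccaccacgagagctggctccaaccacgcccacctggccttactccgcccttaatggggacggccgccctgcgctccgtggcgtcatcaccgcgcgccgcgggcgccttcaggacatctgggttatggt
Mrps18b: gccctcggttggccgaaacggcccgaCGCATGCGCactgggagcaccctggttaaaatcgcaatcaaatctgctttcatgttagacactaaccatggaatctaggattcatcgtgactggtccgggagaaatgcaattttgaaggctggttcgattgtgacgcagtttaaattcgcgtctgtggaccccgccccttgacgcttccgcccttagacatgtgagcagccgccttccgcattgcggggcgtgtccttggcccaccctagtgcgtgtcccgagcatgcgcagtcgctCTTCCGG
In Mrps12 the ETS letters begin at base 2 after the start. In Mrps18b the NRF-1 letters begin at -224 and the ETS letters at 44, both as the reverse complement. In Mrpl55 none of the 4 searched motifs was found. A match is a run of letters only, and binding was not measured.

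Many members share their start region with a gene on the other strand. By the GENCODE annotation of GRCm38, 32 members have a head-to-head neighbour whose start is within 1000 bases, and 35 overlap a gene on the opposite strand. How strand entered the read counts is not stated, so reads of overlapping genes cannot be told apart. Under the symbols of that annotation both genes were tested in 24 pairs, and in 5 both passed, 3 of them in the same direction. After centring, 11 of the 24 pairs lay on the same side of the median gene. Mrpl49 was higher together with Fau, a gene of a cytosolic ribosomal protein (log2 fold change 0.60). Mrpl18 was higher with Tcp1, a chaperonin subunit (0.28), and Mrpl14 with Tmem63b (0.53); both of these members also overlap their neighbour on the opposite strand. The other pairs were Mrpl40 (0.20) with Hira (-0.19) and Mrpl41 (0.28) with Pnpla7 (-0.21), whose directions were opposite. Sars2, the mitochondrial seryl-tRNA synthetase head to head with Mrps12, did not pass (0.09, limma adjusted p = 0.49), and Mrpl44 did not pass (0.10, limma adjusted p = 0.18) beside Wdfy1 (1.86, limma adjusted p = 3.6e-09). Mrps34, which was lower, overlaps Nme3 on the same strand (0.89) and Mapk8ip3 on the other (0.37), both of which were higher.

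Ribosomal subunits with symbols other than Mrpl or Mrps gave 3 higher (42.9%) and 0 lower genes of 7 as deposited, 1 higher after centring, and 1 higher and 1 lower with the length trend removed. As deposited, 37.0% of all genes tested were higher and 14.8% lower. The largest rise of all subunits was among these 7 genes. Gadd45gip1, a large subunit protein at the tunnel exit, had 18.4, 19.2, 14.7, 15.3 and 16.1 RPKM in the knock-out libraries, against 9.70, 9.27, 10.8 and 6.74 RPKM in the wild-type libraries. The groups were far apart, with a log2 fold change of 0.88 (SE 0.13, limma adjusted p = 0.00014) as deposited and 0.75 after centring. Ict1, a peptidyl-tRNA hydrolase built into the large subunit (0.23, limma adjusted p = 0.017), and Chchd1, of the small subunit (0.15, limma adjusted p = 0.047), were higher as deposited but did not pass after centring. The others did not pass: the GTP-binding protein Dap3 (0.03), the pentatricopeptide protein Ptcd3 (0.01) and Aurkaip1 (0.13) of the small subunit, and Mrp63 of the large subunit (0.24, limma adjusted p = 0.055).

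The factors that work with the ribosome moved in both directions. Of 15 translation and associated factors 3 were higher (20.0%) and 4 lower (26.7%) as deposited, where 37.0% and 14.8% of all genes tested were. The list is broad and also holds Lrpprc (lower as deposited), Slirp and Oxa1l (both higher) and Letm1 (did not pass). After centring 1 of the 15 was higher (6.67%) and 7 lower (46.7%), where 25.1% and 24.9% of all genes were. With the length trend removed 1 was higher and 6 lower. Mtif3, an initiation factor, had 9.22 to 11.3 RPKM in the knock-out and 7.86 to 8.58 RPKM in the wild type (log2 fold change 0.38, limma adjusted p = 0.00071). The Slirp gene, listed as 1810035L17Rik and known to stabilise mitochondrial messenger RNAs, was higher as deposited (0.20, limma adjusted p = 0.035) but not after centring. Taco1, an activator of the translation of the cytochrome oxidase subunit Cox1, had 16.5, 15.5, 18.5, 18.3 and 18.1 RPKM in the knock-out, against 22.2, 22.7, 25.8 and 25.9 RPKM in the wild type. These values did not overlap (log2 fold change -0.47, SE 0.07, limma adjusted p = 0.00022). Gfm1, the elongation factor that moves the ribosome along the message, was lower with -0.31 (limma adjusted p = 0.0022).

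Of 22 assembly and ribosomal RNA modification factors 7 were higher (31.8%) and 3 lower (13.6%) as deposited, near the shares of all genes, and after centring 2 were higher (9.09%) and 7 lower (31.8%). Fastkd2, which acts on the RNA of the large subunit, had 4.54 to 5.55 RPKM in the knock-out and 6.28 to 6.96 RPKM in the wild type (log2 fold change -0.39, limma adjusted p = 0.00053). The gene listed as 2410003K15Rik, Malsu1, whose protein binds the large subunit next to Mrpl14 during assembly, was lower as well (-0.29, limma adjusted p = 0.0027). Mpv17l2 (0.37, limma adjusted p = 0.0052) and the pseudouridine synthase Rpusd4 (0.36, limma adjusted p = 0.0035) were higher. With the length trend removed 0 of the 22 were higher and 8 were lower. All genes tested gave 25.1% higher and 24.9% lower after centring, and 24.9% and 24.1% with the length trend removed.

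Among 19 aminoacyl-tRNA synthetase genes of mitochondria 3 were higher (15.8%) and 5 lower (26.3%) as deposited. After centring 2 were higher (10.5%) and 6 lower (31.6%), and the same counts were found with the length trend removed. Over all genes tested, 37.0% were higher and 14.8% lower as deposited. After centring these shares were 25.1% and 24.9%, and with the length trend removed 24.9% and 24.1%. Qrsl1, Gatc and Pet112l, the subunits of the amidotransferase that completes glutaminyl-tRNA in mitochondria, did not pass as deposited; after centring Gatc (-0.22, limma adjusted p = 0.0065) and Pet112l (-0.30, limma adjusted p = 0.0069) were lower, and with the length trend removed all 3 were. Kars, which serves both the cytosol and mitochondria, had 51.5, 55.3, 54.4, 46.9 and 51.0 RPKM in the knock-out libraries, against 30.5, 30.4, 30.4 and 30.1 RPKM in the wild-type libraries. The groups were far apart (log2 fold change 0.77, SE 0.05, limma adjusted p = 5.2e-07). Gars, which also serves both compartments, went the other way, with 15.9 to 17.6 RPKM in the knock-out and 20.7 to 26.3 RPKM in the wild type (-0.44, limma adjusted p = 0.00045). Of the genes for mitochondria alone, Cars2 was higher (0.34, limma adjusted p = 0.0015) and Mars2 lower (-0.38, limma adjusted p = 0.041).

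Genes that maintain and transcribe mitochondrial DNA gave 1 higher (7.69%) and 2 lower (15.4%) of 13 tested as deposited, and 1 higher and 8 lower (61.5%) both after centring and with the length trend removed. Among all genes tested 37.0% were higher and 14.8% lower as deposited. The shares of all genes were 25.1% and 24.9% after centring, and 24.9% and 24.1% with the length trend removed. A pair of subunits of the mitochondrial RNase P, which frees transfer RNAs from the primary transcript, moved apart. Hsd17b10 had 44.2, 42.2, 38.3, 38.1 and 36.8 RPKM in the knock-out, against 25.7, 25.1, 25.6 and 25.0 RPKM in the wild type (log2 fold change 0.65, SE 0.06, limma adjusted p = 4.6e-06). Rg9mtd1 had 4.43 to 6.17 RPKM in the knock-out and 6.77 to 7.68 RPKM in the wild type (-0.39, limma adjusted p = 0.0036). Tfam, which packs mitochondrial DNA and starts its transcription, had 6.81, 7.80, 7.49, 6.99 and 6.53 RPKM in the knock-out, against 8.53, 8.72, 9.07 and 10.0 RPKM in the wild type. Its groups did not overlap (-0.35, SE 0.07, limma adjusted p = 0.0016).

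Of 13 regulators of mitochondrial biogenesis 0 were higher and 3 lower (23.1%) as deposited, and 0 were higher and 4 lower (30.8%) both after centring and with the length trend removed. Of all genes tested 14.8% were lower as deposited, 24.9% after centring and 24.1% with the length trend removed. The shares of higher genes were 37.0%, 25.1% and 24.9% in the same order. Ppargc1a, the coactivator PGC-1 alpha, had 4.23, 4.13, 5.30, 4.26 and 5.46 RPKM in the knock-out, against 6.35, 6.06, 6.11 and 5.71 RPKM in the wild type (log2 fold change -0.38, SE 0.09, limma adjusted p = 0.0056). Prkaa2, a catalytic subunit of the energy sensor AMPK, was also lower (-0.29, limma adjusted p = 0.0043), and so was Yy1 (-0.18, limma adjusted p = 0.034). Of the other factors whose letters were sought in the promoters, Gabpa did not pass as deposited (-0.17, limma adjusted p = 0.095) but was lower after centring (-0.30, limma adjusted p = 0.0086) and with the length trend removed (-0.21, limma adjusted p = 0.033). Nrf1 (-0.04, limma adjusted p = 0.73) and Esrra (0.09, limma adjusted p = 0.45) did not pass as deposited.

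Cytosolic ribosomal proteins, the like genes of the other ribosome, gave 72 higher (92.3%) and 0 lower of 78 tested as deposited. They gave 65 higher (83.3%) and 0 lower after centring, and 46 higher and 2 lower with the length trend removed. Their median log2 fold change was 0.52 as deposited and 0.39 after centring, beside 0.13 and 0.01 for the mitochondrial ribosomal proteins. Nuclear genes of respiratory complex I, whose proteins join others made on the mitochondrial ribosome, gave 17 higher (47.2%) and 1 lower (2.78%) of 36 as deposited, with a median of 0.16. After centring 11 were higher and 5 lower (median 0.03), and with the length trend removed 4 were higher and 13 lower (median -0.10). Among all genes tested 37.0% were higher and 14.8% lower as deposited, and 25.1% and 24.9% after centring. Both sets are also of short transcripts, 97.4% and 97.2% of them in the shortest length class. In that class 49.6% of all genes tested were higher as deposited, which is near the 47.2% of complex I. The differences between the sets were not tested.

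Markers of some other cell and fibre types moved with the genotypes. As deposited, 37.0% of all genes tested were higher and 14.8% lower. Fast muscle markers, those of the labelled tissue, were all present and summed to 98067 to 110351 RPKM in the knock-out and 91356 to 98273 RPKM in the wild type. Of these 10 genes 2 were higher and 0 lower, and after centring 0 were higher and 1 lower. Slow-twitch markers were higher for 10 of 10 genes, with sums of 623 to 1060 RPKM in the knock-out and 208 to 490 RPKM in the wild type. Macrophage markers were higher for 9 of 11 tested (56.2 to 97.7 RPKM in the knock-out, 22.3 to 30.9 RPKM in the wild type), fibroblast markers for 3 of 8 (278 to 370 RPKM in the knock-out, 176 to 261 RPKM in the wild type) and satellite cell markers for 3 of 3 (13.7 to 16.7 RPKM in the knock-out, 6.56 to 11.7 RPKM in the wild type). Endothelial markers were lower for 7 of 11 (30.6 to 53.9 RPKM in the knock-out, 43.3 to 70.6 RPKM in the wild type), red cell markers for 5 of 5 tested (138 to 225 RPKM in the knock-out, 266 to 291 RPKM in the wild type) and adipocyte markers for 3 of 7 (185 to 294 RPKM in the knock-out, 194 to 323 RPKM in the wild type). The share of fibroblast markers that were higher, 37.5%, was near that of all genes tested. In 4 of the 10 slow-twitch genes every knock-out library lay above every wild-type library. After centring, 9 of 10 slow-twitch, 9 of 11 macrophage, 3 of 8 fibroblast and 3 of 3 satellite cell markers were higher. Lower after centring were 9 of 11 endothelial, 5 of 5 red cell and 5 of 7 adipocyte markers. On that scale 25.1% of all genes were higher and 24.9% lower. Of the Schwann cell markers 0 of 5 passed, and the 1 lymphocyte marker tested was higher. No marker was at 0 in all libraries. The part of these cells in the results was not tested, and in whole muscle fewer cells of a type cannot be told apart from less RNA per cell.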

How the data were processed

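Per the labels' protocols, Trizol was used to extract RNA and an Illumina TruSeq kit to build the libraries. The authors deposited a single table of RPKM values with RefSeq transcripts in lines and libraries in columns. The submitters' processing notes name mm9 as the genome build, and TopHat 1.3.2, Bowtie 0.12.7.0 and Partek 6.6 as tools. What each tool did, how strand was treated and which filters ran is not given in the sources used here. Of the columns, the 5 of the knock-out match 1 sample each, and the 4 of the wild type match the genotype only.

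Values of 23665 transcript lines were summed to 18061 symbols as spelled in the table; the members take 85 lines. Since RPKM is not a count, limma 3.58.1 in R 4.3.3 was fitted to log2(RPKM + 0.1) for genes whose RPKM averaged 0.5 or more across all libraries (lmFit, eBayes with trend, two-sided, Benjamini-Hochberg over all genes tested). This scale understates the changes of low genes. The same fit was run after each library was centred on its median log ratio and after a lowess trend (span 0.3) of the log ratio with transcript length was removed. Lengths came from GENCODE vM21 (GRCm38) through RefSeq accessions, for 98.6% of tested genes, and may differ from the models the authors counted. Depth was estimated from transcripts with 1 line: 69.4% to 73.3% of values of up to 5 reads lay within 0.1 of a whole read, where chance gives 20%. This covers counting error only. The fit was tested on simulated data.

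Members and gene lists were chosen with earlier results of these data known, so lists are given as counts and medians. Named members are the 8 largest changes each way past the threshold, the 5 largest each way after centring, the 2 highest and 2 lowest levels, and Mrpl10, Mrpl11, Mrpl12, Mrps12, Mrpl45, Mrps18a, Mrps30 and Mrps36 for their roles; of the other lists, every ribosomal subunit with another symbol and the 2 largest changes each way. Mrps2, Mrps5, Mrpl18, Mrpl48, the neighbours, Yy1, Gabpa, Nrf1, Esrra, Lrpprc, Oxa1l, Letm1, Qrsl1, Gatc and Pet112l are named outside that rule and were chosen after their values were seen. Python 3.11.15, pandas 2.3.3, numpy 2.4.6, scipy 1.17.1 and matplotlib 3.10.9 were used.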

Additional observations from a re-analysis of the deposited data

Results flagged for a closer look

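In groups of 4 or 5 libraries, 2 of 72 sets of values held a library far from the others, and chance alone gives about 1 in 20. Mrps18b was at 21.1 RPKM in the wild-type library wt3, while the other wild-type libraries lay between 18.8 and 18.9 RPKM. Dap3 was at 7.41 RPKM in the knock-out library ko5, while the other knock-out libraries lay between 7.97 and 8.02 RPKM.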

How the results depend on the processing

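The scaling decided how many members passed in each direction. As deposited 35 were higher and 6 lower, with a median log2 fold change of 0.13. Centring gave 16 and 15 (median 0.0053 over all members, 0.022 over Mrpl and 0.0048 over Mrps), quantile normalization 15 and 17 (-0.022, -0.020 and -0.025) and upper-quartile scaling 14 and 17 (-0.017, -0.0015 and -0.018). Removing the length trend gave 10 and 25 (-0.044, -0.041 and -0.046). Scaling to the same RPKM total, an alternative chosen after seeing the data, gave 15 and 17 (-0.025, -0.0091 and -0.025). Other pseudocounts, filters, the most abundant transcript and no trend in the variance left 32 to 35 higher and 4 to 6 lower.

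Leaving out 1 library at a time gave 31 to 34 higher and 3 to 6 lower, with 3 lower without wt3. Without wt1 and wt2 the counts were 24 and 5, and the Mrpl median was 0.067. Without wt3 and wt4 there were 2 lower, and after centring 9 higher and 6 lower. Whether the column numbers pair libraries was not settled. Same-numbered ones deviated together with correlations of -0.14 to 0.15, and differently numbered ones were not compared. A replicate block by number gave 28 higher and 3 lower, but ko5 has no wild-type partner and adds nothing to that comparison. The Mrpl median less the Mrps median lay between -0.025 and 0.036 with 1 library left out. The cause of these changes was not tested.

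Direction turned under some setting for 6 of the 24 named members. In the order centring, quantile, upper quartile, length and same total, Mrpl42 was at -0.021, -0.12, -0.045, -0.20 and -0.053, Mrpl10 at -0.074, -0.098, -0.097, -0.15 and -0.10, Mrpl45 at -0.052, -0.062, -0.074, -0.069 and -0.082, and Mrps18a at -0.093, -0.15, -0.12, -0.24 and -0.12. Mrps30 was at -0.025 with quantile normalization, -0.018 with upper-quartile scaling and -0.025 with the same total, and Mrps36 at -0.036 without the length trend. Without wt1 and wt2, Mrpl10 was at -0.091, Mrpl45 at -0.022 and Mrps18a at -0.037. With 1 library left out, Mrpl10 ran from -0.0047 to 0.13 and Mrps18a ran from -0.022 to 0.078.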
